A study of Mus musculus with 16 samples.

Results

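The transcripts examined were those of the NF-κB subunits, Rela, Rel, Nfkb1, Nfkb2 and Relb, chosen by gene symbol as 5 of the 23337 symbols in a bulk RNA-Seq count table of mouse blood neutrophils. All 5 had enough reads to be tested, among 9213 symbols that did. Neutrophils had been taken by magnetic negative selection from the blood of C57/Bl6 mice aged 8 weeks. Both genotypes carried the floxed allele Ltbr fl/fl, and the LTβRΔN mice carried Mrp8-Cre in addition, a transgene whose promoter is active mainly in neutrophils and their precursors, while the control littermates were Cre-. Libraries were labelled unstimulated or stimulated, with 3 and 4 libraries of control cells and 4 and 5 of LTβRΔN cells under these labels. The protocol named a culture of 2 hours with GM-CSF and TNF (100 ng/ml each) and IL-6 (50 ng/ml), and soluble LIGHT, a ligand of LTβR, added at 500 ng/ml or left out. The design text of the series instead describes culture with or without the cytokines. The labels do not state which of these agents each library received. It is thus not settled whether the unstimulated cells had the cytokines without LIGHT or no agent at all, so the groups are called by their labels only. The labels do not say whether libraries of a group came from separate mice, so the p-values measure the spread between libraries.

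NF-κB is a family of dimeric transcription factors held inactive in the cytoplasm of resting cells. In the classical pathway, receptors such as those for TNF activate the IκB kinase complex, IκB proteins are degraded, and dimers of RelA or c-Rel with the product of Nfkb1 enter the nucleus. In the alternative pathway, which is the one LTβR is best known for, the precursor made from Nfkb2 is processed and its product pairs with RelB. RelA, c-Rel and RelB carry a transactivation domain, which the processed products of Nfkb1 and Nfkb2 lack. Transcription of several subunit genes is itself under NF-κB control, and neutrophils use the family in producing cytokines and in delaying apoptosis.

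The members lie on GRCm38 at chr11:23736847-23770970 for Rel, chr19:5637483-5648130 for Rela, chr19:46304320-46312385 for Nfkb2, chr3:135584655-135691547 for Nfkb1 and chr7:19606217-19629438 for Relb, as GENCODE M21 places them. Reference promoter windows, 250 bases before to 50 bases after a start site, were found in the RefSeq table on GRCm38.p6 for Rel, Rela and Nfkb2, with 1, 1 and 3 windows. No window was found for Nfkb1 or Relb. The part of the promoter letters in the changes described below was not tested. Capitals mark matches to the κB consensus in the first 3 stretches and the GC box bound by Sp1 in the last.
Rel, 145 to 35 bases before the start, minus strand of chr11:23771004-23771114: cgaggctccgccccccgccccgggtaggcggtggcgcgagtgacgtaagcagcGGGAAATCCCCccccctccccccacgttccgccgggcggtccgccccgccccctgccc
Nfkb2 window 1, 44 to 20 bases before the start, plus strand of chr19:46304693-46304717: gtcacGGGAATTCCCCccctcgggg
Nfkb2 window 1, 18 to 1 bases before the start, plus strand of chr19:46304719-46304736: gccgaaaGGGGCTTTCCc
Rela, 150 to 65 bases before the start, plus strand of chr19:5637391-5637476: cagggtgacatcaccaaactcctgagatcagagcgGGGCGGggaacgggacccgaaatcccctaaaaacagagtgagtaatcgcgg

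The κB consensus, searched on both strands, matched at 2 overlapping places in the Rel window and at 3, 2 and 1 places in the 3 Nfkb2 windows. In Nfkb2 window 1 the places 39 to 30 and 38 to 29 bases before the start overlap. Windows 2 and 3 overlap, and the match in window 3 is the site found 11 bases after the start in window 2. The consensus had 0 matches in the Rela window. Of 32851 mouse promoter windows of the same length, 8.46% held a match. The GAS element TTCNNNGAA, the form bound by STAT factors, matched once in Nfkb2 window 1 and in 8.30% of all windows. The AP-1 element TGANTCA matched once in Nfkb2 window 2 and in 7.81% of all windows. The GC box GGGCGG matched 5 times in the Rel window, 2 times each in the Rela window and Nfkb2 window 2, 1 time in Nfkb2 window 3, and in 35.7% of all windows. By GENCODE M21 both Nfkb2 stretches shown lie in annotated exons, while the Rel and Rela stretches lie outside any exon. These are letter matches in short windows, and binding was not measured.

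Library totals lay between 1094335 and 11932653 reads, and 3 LTβRΔN libraries had fewer than 2000000. Ltbr, the targeted gene, stood at 116 ± 33.0 CPM (mean ± SD, n = 3, where CPM is the read count relative to library size, scaled by TMM, a correction for the make-up of each library) in unstimulated and 109 ± 27.7 CPM (n = 4) in stimulated control neutrophils. In LTβRΔN neutrophils it stood at 8.22 ± 3.14 CPM (n = 4) and 8.65 ± 6.75 CPM (n = 5). The labelled cell type was checked against marker lists, and the 9 neutrophil markers counted summed to 46353 to 76697 CPM. The monocyte list summed to 341 to 563 CPM, almost all of it Csf1r and Ly6c2, while Ccr2 and Cx3cr1 had counts in 1 library each. The B cell and NK cell lists summed to at most 1.60 and 0.140 CPM, and the T cell list to 4.30 to 16.4 CPM, mostly Cd3d. The eosinophil list summed to 37.6 to 114 CPM, with Siglec5 in all 16 libraries and Epx and Prg2 at 0 in all of them. The ranges of these lists overlapped between the groups. The platelet list reached 170 CPM and the immature neutrophil list 753 CPM in stimulated control libraries, against at most 21.1 and 229 CPM in the other groups, and their part in the results was not tested. The library index in the labels was S520 in 6 libraries and S521 in 10. All 4 unstimulated LTβRΔN libraries carried S520 and all 5 stimulated ones S521, so within that genotype index and treatment cannot be told apart except through the 3 unstimulated control libraries, of which 1 carried S521. In bulk RNA, fewer cells of a type and less RNA per cell cannot be told apart.

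Rela, which encodes the main activating subunit of the classical pathway, was the most abundant member and did not pass the test in either genotype. In control neutrophils Rela stood at 205, 171 and 149 CPM unstimulated and at 174, 225, 188 and 204 CPM stimulated. In LTβRΔN neutrophils it stood at 171, 203, 128 and 191 CPM unstimulated and at 201, 333, 208, 276 and 162 CPM stimulated. The groups overlapped in both genotypes. The log2 fold change was 0.18 (SE 0.205, 95% interval -0.25 to 0.60) in control and 0.46 (SE 0.184, 0.07 to 0.84) in LTβRΔN neutrophils. The adjusted p-values of edgeR's quasi-likelihood test were 0.899 and 0.249, and scaling by library totals alone turned the control value to -0.07. The upper ends of the intervals correspond to 1.52-fold in control and 1.79-fold in LTβRΔN neutrophils. Column names of the treatment labels share numbers whose meaning the labels do not state. With these numbers as a replicate block, the LTβRΔN value was 0.54 and passed (edgeR adjusted p = 0.0459).

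Rel, which encodes c-Rel, rose in both genotypes and had the highest fold change among the members in LTβRΔN neutrophils. In control neutrophils Rel stood at 39.0, 67.2 and 58.8 CPM unstimulated and at 119, 134, 133 and 112 CPM stimulated. In LTβRΔN neutrophils it stood at 35.9, 38.4, 33.3 and 34.7 CPM unstimulated and at 104, 163, 130, 116 and 107 CPM stimulated. Every stimulated library lay above every unstimulated library in each genotype. Rel was 2.27-fold higher after stimulation in control (log2 1.18, SE 0.202, edgeR adjusted p = 0.000439) and 3.51-fold higher in LTβRΔN neutrophils (log2 1.81, SE 0.187, adjusted p = 2.83e-07). With the library index as a covariate the control value was 1.08 and no longer passed (adjusted p = 0.125), while the LTβRΔN value of 1.66 still did (adjusted p = 0.0413). The unstimulated control library with index S521 held 58.8 CPM, and the 4 stimulated control libraries, all with that index, held 112 to 134 CPM.

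Nfkb1, which encodes the precursor of the p50 subunit and whose product also acts as an IκB protein, passed the test only in LTβRΔN neutrophils, and there not in every setting. In control neutrophils Nfkb1 stood at 39.0, 37.4 and 41.3 CPM unstimulated and at 61.9, 60.3, 81.7 and 47.7 CPM stimulated. In LTβRΔN neutrophils it stood at 34.8, 56.0, 28.1 and 24.9 CPM unstimulated and at 54.8, 73.4, 62.0, 54.3 and 85.6 CPM stimulated. The control groups did not overlap, and the LTβRΔN groups did: unstimulated replicate 2, the shallowest library with 70 Nfkb1 reads, lay above 2 of the stimulated libraries. The log2 fold change was 0.68 (SE 0.262, edgeR adjusted p = 0.244) in control and 0.93 (SE 0.240, adjusted p = 0.0265) in LTβRΔN neutrophils. The LTβRΔN call was lost when unstimulated replicate 1, 3 or 4 was left out (adjusted p = 0.0753, 0.122 and 0.136) or stimulated replicate 2 or 5 (0.0589 and 0.0869). It was also lost with the index as a covariate (log2 0.82, adjusted p = 0.9999) and with scaling by library totals (0.73, 0.0961). The call was thus lost in 7 alternatives and kept in 12, among them the fit without unstimulated replicate 2 (1.18, adjusted p = 0.00279). The difference between the genotypes was 0.25 with a 95% interval of -0.48 to 0.97, so the genotypes were not shown to differ.

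Nfkb2, which encodes the precursor of the p52 subunit of the alternative pathway, rose in both genotypes in every setting tried. In control neutrophils Nfkb2 stood at 53.5, 64.1 and 42.5 CPM unstimulated and at 135, 135, 129 and 91.3 CPM stimulated. In LTβRΔN neutrophils it stood at 45.6, 53.6, 39.4 and 57.2 CPM unstimulated and at 90.3, 192, 122, 137 and 108 CPM stimulated. No unstimulated library of either genotype reached the lowest stimulated library. Nfkb2 was 2.29-fold higher after stimulation in control (log2 1.20, SE 0.236, edgeR adjusted p = 0.00226) and 2.68-fold higher in LTβRΔN neutrophils (log2 1.42, SE 0.214, adjusted p = 7.55e-05). With the index as a covariate the log2 values were 1.53 and 1.89 (adjusted p = 0.0324 and 0.0424). Of the 4584 exonic bases of Nfkb2, 830 are shared with exons of genes on the opposite strand, 531 with the lncRNA AC114539.1 and 299 with Psd. Whether counting used strand is not given in the sources used here, so reads from those bases cannot be assigned to 1 of the genes.

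Relb, which encodes the partner of p52, passed the test in control but not in LTβRΔN neutrophils, and had the widest relative spread of the members in stimulated LTβRΔN neutrophils. In control neutrophils Relb stood at 38.4, 39.2 and 34.1 CPM unstimulated and at 109, 81.4, 69.6 and 98.4 CPM stimulated. In LTβRΔN neutrophils it stood at 30.3, 26.4, 52.7 and 49.1 CPM unstimulated and at 61.0, 119, 98.6, 29.2 and 74.0 CPM stimulated. The control groups were apart, and in LTβRΔN neutrophils stimulated replicate 4 lay among the unstimulated libraries. The log2 fold change was 1.26 (SE 0.331, edgeR adjusted p = 0.0302) in control and 0.93 (SE 0.295, adjusted p = 0.0938) in LTβRΔN neutrophils. Without stimulated replicate 4 the LTβRΔN value was 1.13 and passed (adjusted p = 0.00665). With any other LTβRΔN library left out instead, it did not pass (adjusted p = 0.0959 to 0.266). Nor did it pass with libraries over 2000000 reads only (log2 0.77, adjusted p = 0.408) or with the replicate block (0.82, 0.270). Relb in LTβRΔN neutrophils thus passed in 3 alternatives, the fit without stimulated replicate 4 among them, and did not pass in 16. The control call was lost without any 1 of the 3 unstimulated libraries (adjusted p = 0.108, 0.119 and 0.145 without replicates 1, 2 and 3) or without stimulated replicate 1 or 4 (0.0752 and 0.0650). It was also lost with the index as a covariate (log2 1.39, adjusted p = 0.397) and with scaling by library totals (1.02, 0.0868). The only unstimulated control library with index S521 held 34.1 CPM, and the 4 stimulated control libraries, all with that index, held 69.6 to 109 CPM. The difference between the genotypes was -0.34 with a 95% interval of -1.23 to 0.56, so the call in 1 genotype alone is not shown to be a difference between them.

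**Figure D1:**
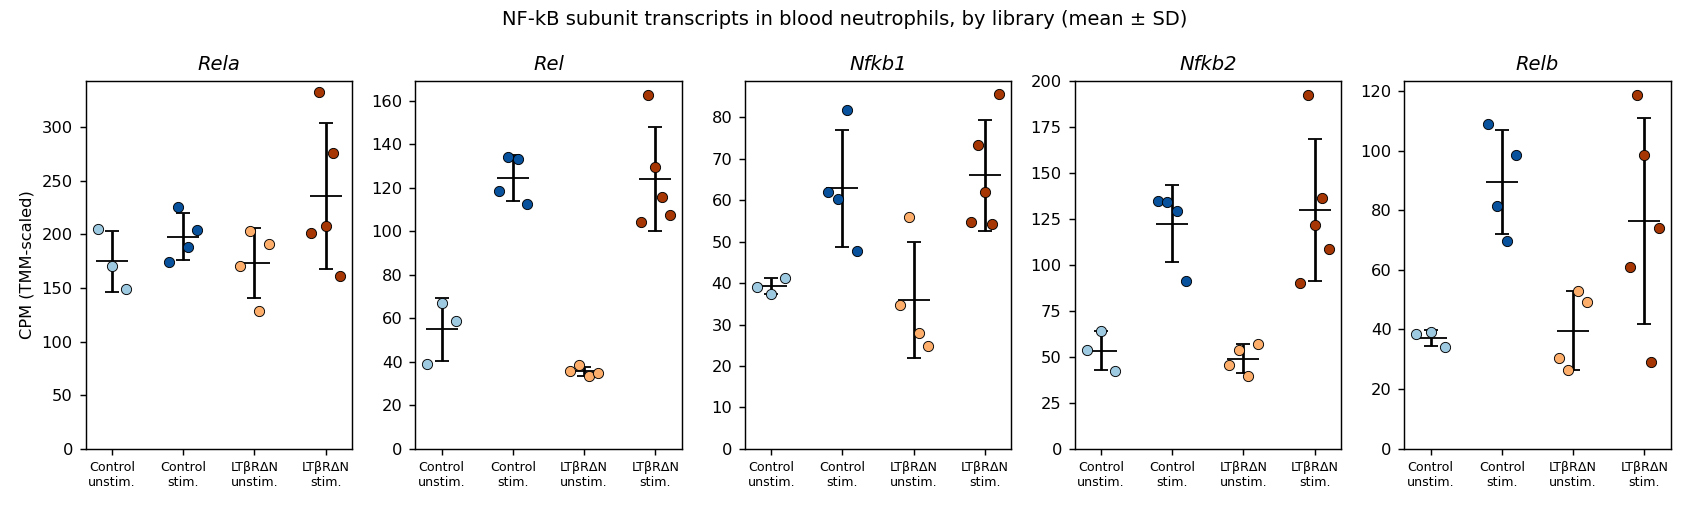
TMM-scaled CPM of each subunit transcript (vertical axis, from 0, a scale of its own in each panel) in the 4 groups; points are libraries, horizontal marks are group means and bars are SD. Rel and Nfkb2 show stimulated libraries above all unstimulated ones in both genotypes, Rela shows overlap, and 1 stimulated LTβRΔN library sits at 29.2 CPM for Relb.

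Among the 5 members, 3 passed the test as higher after stimulation in control neutrophils (Nfkb2, Rel and Relb) and 3 in LTβRΔN neutrophils (Nfkb1, Nfkb2 and Rel), and 0 passed as lower. Over all tested genes, 3.48% passed in control neutrophils, 2.82% as higher and 0.662% as lower. In LTβRΔN neutrophils 3.73% passed, 2.98% as higher and 0.749% as lower. The 2 groups did not overlap in CPM for 4 of the 5 members in control neutrophils, against 12.7% of all tested genes, and for 2 of 5 in LTβRΔN neutrophils, against 7.28%. Under scaling by library totals the median log2 change of all genes moved from -0.02 to -0.27 in control and from -0.03 to -0.21 in LTβRΔN neutrophils. The split of higher against lower calls then moved from 260 and 61 to 201 and 272, and from 275 and 69 to 216 and 293. Ordered by fold change from the top of the 9213 genes, Rel stood at place 759 in control and 346 in LTβRΔN neutrophils, and Nfkb2 at 742 and 517. Relb stood at 686 and 988, Nfkb1 at 1448 and 990, and Rela at 3173 and 2018. This order takes in genes that did not pass, since 260 passed as higher in control and 275 in LTβRΔN neutrophils. The places thus do not show where the subunits stand among genes that passed.

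**Figure D2:**
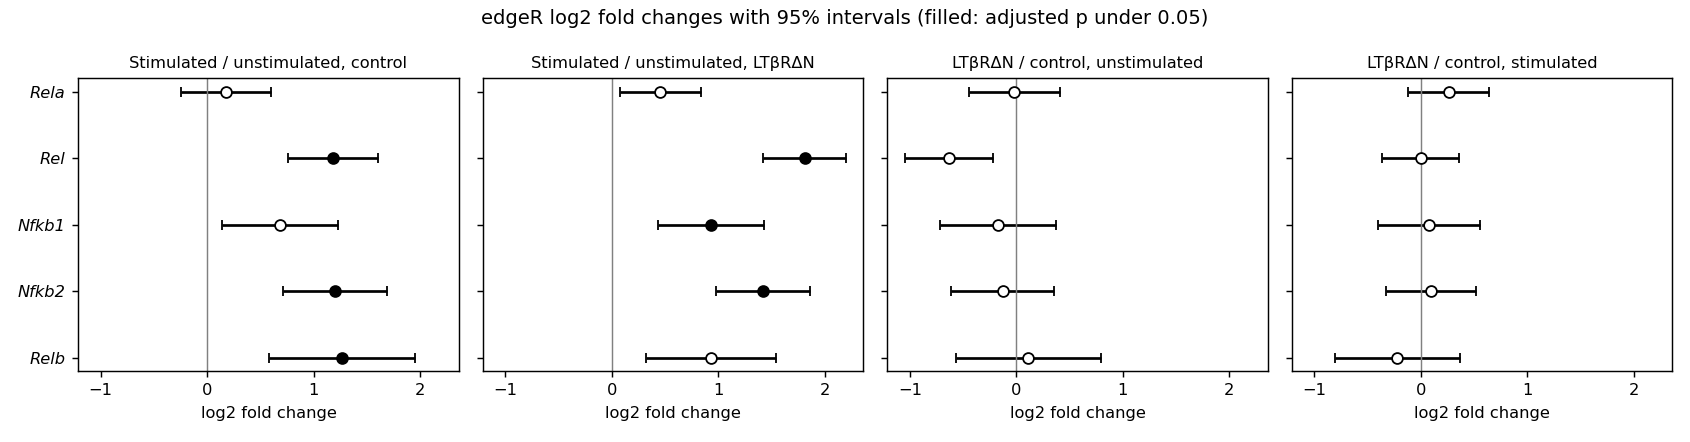
Log2 fold changes of the 5 subunit transcripts (horizontal axis) from edgeR with 95% intervals, in the 4 comparisons named above the panels; filled points passed the adjusted threshold of 0.05. The stimulation panels hold 3 filled points each, and both genotype panels hold open points only, with the Rel interval of -1.05 to -0.22 in unstimulated cells the only one there that leaves out 0.

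Comparing genotypes asks whether loss of LTβR moved the subunit transcripts. No member passed the test. In stimulated neutrophils the log2 differences of LTβRΔN from control ran from -0.22 for Relb to 0.26 for Rela, with 95% intervals of -0.81 to 0.37 and -0.12 to 0.64. Those for Nfkb1, Nfkb2 and Rel were 0.07 (-0.40 to 0.55), 0.10 (-0.32 to 0.51) and 0.00 (-0.36 to 0.36). The groups overlapped for all 5 members. Among all genes tested by edgeR, 2 passed, or 0.0217%, with 591 at an unadjusted p under 0.05 and 14 passing in DESeq2, and 1.31% of genes had groups that did not overlap. The intervals reach a level 1.55-fold higher in LTβRΔN than in control cells for Rela, and 1.75-fold lower for Relb.

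In unstimulated neutrophils Rel was the member with the largest genotype difference. It held 33.3 to 38.4 CPM in LTβRΔN and 39.0 to 67.2 CPM in control libraries, and the highest LTβRΔN library lay just below the lowest control library. The log2 difference was -0.63 (SE 0.201, 95% interval -1.05 to -0.22), with an unadjusted edgeR p of 0.00459 and an adjusted p of 1, so it did not pass. Groups that did not overlap made up 5.71% of all tested genes in this comparison. Leaving out 1 library at a time gave -0.83 to -0.47, and the index as a covariate gave -0.58. The other members differed by -0.17 (Nfkb1), -0.13 (Nfkb2), -0.02 (Rela) and 0.11 (Relb), with overlapping groups. Of all genes, 2 passed, again 0.0217%, with 258 at an unadjusted p under 0.05 and 4 passing in DESeq2.

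The test of whether stimulation acted differently in the genotypes passed for 0 of the 5 members and for 0% of all genes in edgeR, with 342 genes at an unadjusted p under 0.05 and 0 passing in DESeq2. Rel had the largest such difference, 0.63 higher on the log2 scale in LTβRΔN neutrophils (95% interval 0.08 to 1.18, unadjusted p = 0.0268, adjusted p = 0.9999). In level, Rel came from 35.6 ± 2.17 CPM (SD, n = 4) in unstimulated LTβRΔN against 55.0 ± 14.5 CPM (n = 3) in unstimulated control cells, and reached 124 ± 23.8 (n = 5) and 125 ± 10.7 CPM (n = 4). The stimulated means were thus close, and the unstimulated means, whose genotype comparison did not pass, lay apart.

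To compare the members with each other, CPM was divided by the length of each gene's exons in kb. Per kb of all annotated exons, the order was Rela, Nfkb2, Relb, Rel and Nfkb1 in each of the 4 groups. In unstimulated control neutrophils the levels were 56.9 ± 9.30 for Rela, 11.6 ± 2.36 for Nfkb2, 9.59 ± 0.705 for Relb, 7.37 ± 1.94 for Rel and 3.25 ± 0.162 CPM per kb for Nfkb1 (SD, n = 3). In stimulated control neutrophils they were 64.4 ± 7.14, 26.7 ± 4.58, 23.0 ± 4.49, 16.7 ± 1.43 and 5.22 ± 1.17 CPM per kb in the same order (n = 4). In every group the lowest Rela library lay above the highest Nfkb2 library, and the ranges of Nfkb2 and Relb overlapped. The ranges of Relb and Rel overlapped in all groups but unstimulated LTβRΔN, and those of Rel and Nfkb1 in that group alone. The place of Nfkb1 rests on its length, since its annotated exons cover 12061 bases and its longest transcript 4149. Divided by the longest transcript, Nfkb1 lay above Rel in both unstimulated groups, at 9.45 against 7.37 CPM per kb in control and 8.66 against 4.77 in LTβRΔN neutrophils.

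As a share of the summed per-kb level of the 5 members, Rela made up 63.9% ± 4.47 (SD, n = 3) in unstimulated and 47.3% ± 4.06 (n = 4) in stimulated control neutrophils. In LTβRΔN neutrophils its share was 66.0% ± 4.87 (n = 4) and 52.1% ± 6.28 (n = 5). The share of Rela was 60.6 to 69.0% in the unstimulated control libraries and 41.9 to 50.8% in the stimulated ones, without overlap, and 59.1 to 70.1% and 45.0 to 61.0% in LTβRΔN libraries, with overlap. The mean shares of Rel and Nfkb2 were higher in stimulated cells, without overlap between the labels except for Nfkb2 in control. Rel went from 8.45% ± 2.65 to 12.3% ± 0.879 in control and from 5.66% ± 0.585 to 11.4% ± 0.898 in LTβRΔN neutrophils. Nfkb2 went from 13.1% ± 1.88 to 19.6% ± 3.01 and from 12.5% ± 0.520 to 19.2% ± 1.63. Relb went from 10.8% ± 0.561 to 16.99% ± 3.59 in control, and from 12.4% ± 5.23 to 13.4% ± 4.97 in LTβRΔN neutrophils, less than the spread between libraries. Nfkb1 made up 3.49 to 3.896% in all group means. With the longest transcript as length, its mean share was 8.43 to 9.36%. That of Rel was then 7.03% and 10.2% in control, and 4.71% and 9.49% in LTβRΔN neutrophils. Shares within a library do not depend on library scaling but do depend on the lengths used, and were taken without a test.

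**Figure D3:**
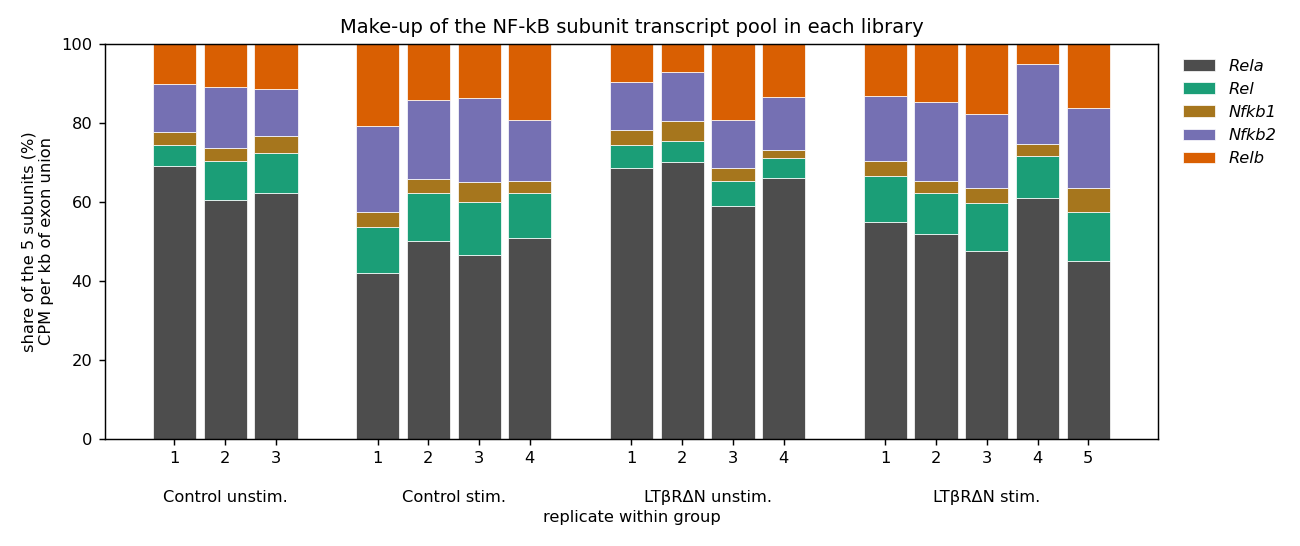
Share in percent (vertical axis, 0 to 100) of each subunit in the summed CPM per kb of exon union of the 5 subunits, with 1 bar per library and replicate numbers below. The dark Rela segment is 59.1 to 70.1% of the bar in unstimulated and 41.9 to 61.0% in stimulated libraries, the Rel segment is wider in every stimulated library than in any unstimulated one, and the Nfkb2 segment is wider in the group means but overlaps in control, at 15.2% in 1 library of each label.

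Ratios of read counts within a library need no length or scaling, and their overlaps between labels differed in part from those of the shares. The ratio of Rel to Rela reads was 0.190 to 0.396 in unstimulated and 0.551 to 0.706 in stimulated control libraries, and 0.182 to 0.259 and 0.420 to 0.664 in LTβRΔN libraries. The ratio of Nfkb2 to Rela reads was 0.260 to 0.376 and 0.447 to 0.775 in control libraries, and 0.264 to 0.307 and 0.449 to 0.671 in LTβRΔN libraries. Neither ratio overlapped between treatment labels in either genotype. The ratio of Relb to Rela reads was 0.187 to 0.230 and 0.361 to 0.625 in control libraries, without overlap. In LTβRΔN libraries it was 0.130 to 0.411 and 0.106 to 0.475, and the stimulated range took in the whole unstimulated range. The ratio of Nfkb2 to Nfkb1 reads, the precursor genes of the alternative and the classical pathway, overlapped between labels in both genotypes, at 1.03 to 1.72 and 1.58 to 2.23 in control and 0.957 to 2.30 and 1.27 to 2.62 in LTβRΔN libraries.

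The members varied together to unequal degrees, described here over libraries that share the treatment difference. Across all 16 libraries the correlation of log2 CPM was highest for Nfkb2 with Rel (Pearson's r = 0.93) and lowest for Rela with Relb (r = 0.23). Within the 9 stimulated libraries Nfkb2 and Rel still had r = 0.86, and within the 7 unstimulated libraries 0.33. In stimulated LTβRΔN neutrophils replicate 2 held the highest level of Nfkb2, Rel, Rela and Relb, at 192, 163, 333 and 119 CPM, but replicate 5 that of Nfkb1, at 85.6 CPM. Nfkb1 and Relb had r = -0.87 over the 7 unstimulated libraries and 0.18 over the 9 stimulated ones. Relb in stimulated LTβRΔN replicate 4, at 29.2 CPM, rested on 65 reads. In the same library Rela, Rel and Nfkb2 lay inside the range of the other stimulated LTβRΔN libraries, and Nfkb1, at 54.3 CPM, lay just below its lowest value of 54.8 CPM.

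The tested genes whose levels most resembled each member over the 16 libraries were picked by Pearson correlation of log2 CPM. For Rel they were Nfkbie, which encodes IκBε (r = 0.98), and Ccng2, which encodes cyclin G2 (r = 0.96). Nfkbie rose by 2.92 (SE 0.302) in control and 3.10 (SE 0.276) in LTβRΔN neutrophils on the log2 scale, and Ccng2 by 1.94 (SE 0.152) and 2.08 (SE 0.135). For Nfkb2 they were Txnrd1, a thioredoxin reductase (r = 0.96), and Ehd1, which acts in endocytic recycling (r = 0.95). Txnrd1 rose by 3.30 (SE 0.324) and 3.27 (SE 0.295), and Ehd1 by 1.84 (SE 0.229) and 1.63 (SE 0.199). These 4 genes passed edgeR's test in both genotypes and had larger log2 fold changes than the member they resembled. They were picked for their likeness over the same libraries, so calls like those of the member follow from the choice.

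For Nfkb1 the most similar genes were Med13l, a subunit of the Mediator kinase module (r = 0.91), and Rod1, an RNA-binding protein gene (r = 0.88). Med13l rose in both genotypes (log2 0.88, SE 0.209, and 0.97, SE 0.189), and Rod1 passed in LTβRΔN neutrophils alone (0.27, SE 0.143, and 0.58, SE 0.129). For Relb they were B4galt1, a galactosyltransferase (r = 0.90), and Birc3, an inhibitor of apoptosis that ubiquitinates pathway kinases (r = 0.86). B4galt1 passed in control (1.07, SE 0.284) and not in LTβRΔN neutrophils (0.51, SE 0.253). Birc3 passed in both genotypes (0.81, SE 0.194, and 0.64, SE 0.171). Both genes were picked for their likeness to Relb over the same libraries, so a call like that of Relb is no separate evidence. For Rela they were Aplnr (r = 0.81) and the kinase gene Tbk1 (r = 0.76), and neither passed in either genotype. Aplnr had 0 reads in every unstimulated library, in 2 of 4 stimulated control and in 3 of 5 stimulated LTβRΔN libraries, so its likeness to Rela rests on few libraries.

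The other genes of the pathway were taken from lists chosen with earlier results of these data known. They are described by how many passed the test, and the shares over all genes beside them are no test of the lists. Of 14 listed IκB proteins and feedback inhibitors 13 were tested, of which 8 rose and 0 fell in control and 7 rose and 0 fell in LTβRΔN neutrophils, where 2.82% and 2.98% of all tested genes were called higher. The median log2 change was 1.31 and 1.33, against -0.02 and -0.03 over all tested genes. The largest rises were those of Tnfaip3, which encodes the ubiquitin-editing enzyme A20 (5.98, SE 0.202, and 5.35, SE 0.171), Nfkbia, which encodes IκBα (5.001, SE 0.203, and 4.85, SE 0.175), and Nfkbie. Nfkbia went from 548 ± 203 CPM (SD, n = 3) to 17526 ± 899 CPM (n = 4) in control neutrophils. The gene for IκBα thus had a far higher level than any subunit gene after stimulation.

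Of 30 listed target genes 25 were tested, of which 16 rose and 0 fell in each genotype, against 2.82% of all tested genes higher in control and 2.98% in LTβRΔN neutrophils. The median log2 change was 1.80 in control and 1.54 in LTβRΔN neutrophils, against -0.02 and -0.03 over all tested genes. Il1a, the gene of interleukin 1α, went from 3.68 ± 2.91 to 372 ± 95.5 CPM in control (log2 6.55, SE 0.517) and from 3.11 ± 2.66 to 287 ± 67.5 CPM in LTβRΔN neutrophils (6.47, SE 0.478). The chemokine gene Cxcl3 rose by 5.03 (SE 0.256) and 4.66 (SE 0.225). Cd83 had 0 reads in the 3 unstimulated control libraries and 4.58 ± 2.59 CPM in the 4 stimulated ones, at least 44.4-fold higher when 3 reads over the unstimulated group are taken as the floor. LTβRΔN neutrophils had 19 Cd83 reads in the unstimulated libraries, 2 of which had 0, and 81 in the stimulated ones (3.35 ± 3.14 CPM), and there it did not pass (log2 1.64, SE 1.29, edgeR adjusted p = 0.712). The chemokine gene Cxcl1 passed in LTβRΔN neutrophils with 11 reads in the unstimulated libraries, 3 of which had 0, and 166 reads in the stimulated ones (9.67 ± 4.23 CPM), and in control neutrophils, with 39 and 231 reads, it did not (log2 2.85, SE 1.24, adjusted p = 0.348). The targets Il6, Vcam1, Myc, Ptx3 and Nos2 were too low to test.

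Of 26 genes of the IκB kinase complex, related kinases and adaptors, 3 rose in control and 4 in LTβRΔN neutrophils, 0 fell, and the median log2 change was 0.01 and -0.06. The adaptor gene Traf1 rose by 3.68 (SE 0.959) and 3.62 (SE 0.904) from a low level of 2.30 ± 2.65 and 1.89 ± 1.92 CPM. Traf6, which encodes a ubiquitin ligase of the classical pathway, rose by 2.31 (SE 0.373) and 1.45 (SE 0.324). Birc3 rose by 0.81 (SE 0.194) and 0.64 (SE 0.171), and Ripk1, which encodes a kinase bound to TNF receptors, rose by 0.75 (SE 0.206) in LTβRΔN neutrophils, with 0.35 (SE 0.226), which did not pass, in control. Most of this list did not pass. Over all tested genes, 2.82% were called higher in control and 2.98% in LTβRΔN neutrophils, smaller shares than in this list.

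Of 12 listed receptor genes, the adaptor gene Myd88 among them, 8 were tested, of which 3 rose and 1 fell in control, and 3 rose and 0 fell in LTβRΔN neutrophils. Over all tested genes, the shares higher and lower were 2.82% and 0.662% in control, and 2.98% and 0.749% in LTβRΔN neutrophils. The Toll-like receptor gene Tlr2 rose by 1.84 (SE 0.157) and 1.62 (SE 0.136), Myd88 by 0.77 (SE 0.124) and 0.74 (SE 0.110), and Tlr4 by 0.76 (SE 0.212) and 0.94 (SE 0.189). Tnfrsf1a, which encodes TNF receptor 1, fell by 0.44 (SE 0.117) in control neutrophils and stood at -0.31 (SE 0.103), which did not pass, in LTβRΔN neutrophils. Of 24 cofactors and modifiers of the subunits, 0 passed in control and 1 in LTβRΔN neutrophils, beside 3.48% and 3.73% of all tested genes. The gene that passed was the acetyltransferase gene Crebbp (log2 1.14, SE 0.260, against 0.71, SE 0.283, in control). Of 4 tested NFAT genes, which share the Rel homology domain with the subunits, 0 passed in either genotype, beside the same shares of all tested genes. Counts this low do not set either list apart from all tested genes. The NFAT log2 values were -0.04 to 2.27 in control and -0.69 to 0.90 in LTβRΔN neutrophils. Between genotypes, Ltbr itself was the only listed gene to pass, at -3.80 (SE 0.452) in unstimulated and -3.71 (SE 0.417) in stimulated neutrophils.

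**Figure D4:**
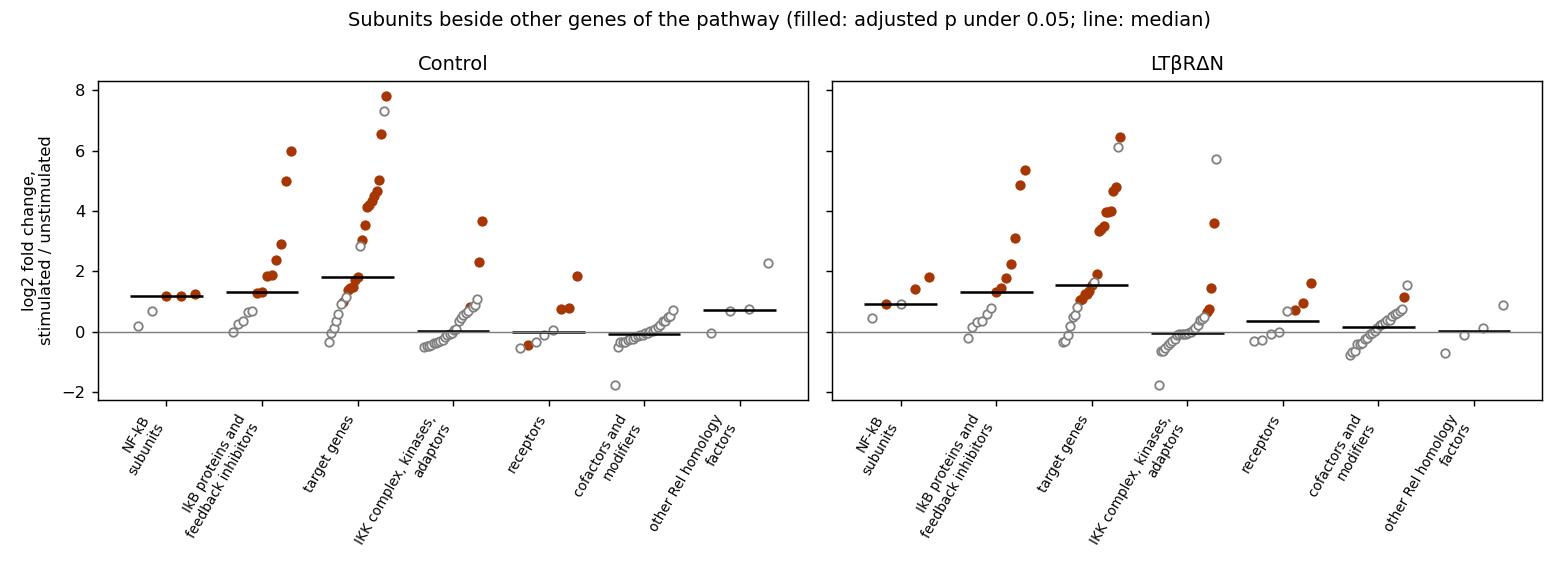
Log2 fold change of stimulated over unstimulated (vertical axis) for each tested gene of the subunits and of the 6 pathway lists, in control (left) and LTβRΔN neutrophils (right); filled points passed the adjusted threshold of 0.05 and lines are medians. Subunits lie between 0.18 and 1.81, IκB and feedback genes reach 5.98, and most genes of the kinase and cofactor lists and all 4 NFAT genes are open points, the NFAT genes with a median of 0.72 in control and 0.02 in LTβRΔN neutrophils. Over all tested genes, 3.48% passed in control and 3.73% in LTβRΔN neutrophils.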

How the data were processed

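Per the labels, RNA of blood neutrophils was sequenced single-end on a HiSeq2500. The authors deposited raw counts, 1 whole number for each gene symbol and library, in a single table. The submitters' processing notes list Bowtie 1.0.0, TopHat 1.4.1, HTSeq 0.7.1 and the build mm10, without their settings. The statistical test and the strand setting are not given in the sources used here.

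The members and gene lists were chosen with earlier results of these data known. Counts of all 16 libraries were fitted with edgeR 4.0.16 (R 4.3.3), TMM factors, 1 coefficient per group and the two-sided quasi-likelihood test, after filterByExpr (minimum count 10, minimum total 15) kept 9213 of 23337 symbols. Benjamini-Hochberg adjusted p-values under 0.05 over all of these counted as passed. Correlations used log2 CPM with a prior count of 2. Library totals of 1094335 to 11932653 left the least covered members with 33 (Relb) and 48 (Rel) reads in the shallowest libraries, and intervals within a library cover counting error only. Library pairs of a group differed by more than sampling noise (chi-square per degree of freedom 6.82 to 49.4), so none was counted as a repeat. Exon lengths came from GENCODE M21 on GRCm38, and promoter windows from RefSeq on GRCm38.p6. The script was tested on simulated data.

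Genes named are the members, Ltbr, the 2 tested genes most correlated with each member, and up to 3 genes per direction with the largest change among those that passed in each list and stimulation comparison. Alternatives were RLE, upper-quartile and totals-only scaling, a stricter and no filter on low counts, DESeq2 1.42.0, the compared groups alone, the library index as a covariate, a replicate block, libraries over 2000000 reads only, and each library left out in turn. Protein sequences were not analysed here.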

Additional observations from a re-analysis of the deposited data

Results flagged for a closer look

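Among the 15 sets of member values in groups of 4 or 5 libraries, 1 held a library far from the others. In stimulated control neutrophils Nfkb2 stood at 91.3 CPM in replicate 4, against 129 to 135 CPM in the other 3 libraries, a gap beyond Dixon's 95% limit for 4 values. Chance marks about 1 in 20 such sets. Leaving out 1 library at a time, the Nfkb2 log2 change in control neutrophils stayed between 1.06 and 1.34 and passed the test each time.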

How the results depend on the processing

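Nfkb2 kept its direction and its call in both stimulation comparisons under every alternative, and Rel in LTβRΔN neutrophils did too. With the library index as a covariate, Rel in control was 1.08 (adjusted p = 0.125), Relb in control 1.39 (0.397) and Nfkb1 in LTβRΔN neutrophils 0.82 (0.9999), and the genes passing numbered 157 instead of 321 in control, 79 instead of 344 in LTβRΔN neutrophils and 1 instead of 0 for the difference between them. This term rests on the 3 unstimulated control libraries alone. With totals-only scaling, Rela in control was -0.072, Relb in control 1.02 (0.0868) and Nfkb1 in LTβRΔN neutrophils 0.73 (0.0961). Relb in LTβRΔN neutrophils passed with at least 10 counts in every library (0.95, 0.0368), which tests fewer genes, and in DESeq2 (0.95, 0.0405). The cause of the other changes was not tested.

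Leaving out 1 library at a time gave 1.16 to 1.37 for Relb and 219 to 334 genes in control, and 0.78 to 1.18 for Nfkb1 and 0.70 to 1.13 for Relb in LTβRΔN neutrophils. For the genotype difference in stimulated cells it gave -0.038 to 0.23 (Nfkb1), -0.10 to 0.20 (Nfkb2) and -0.13 to 0.054 (Rel), and in unstimulated cells -0.13 to 0.11 (Rela), -0.045 to 0.25 (Relb), -0.27 to 0.02 (Nfkb2) and 2 to 6 genes passing, the 6 without control replicate 1. For the difference in stimulation it gave 0 to 2 genes, the 2 without that same library.

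The genotype difference of Rel in stimulated cells, at 0 in the report, turned positive with RLE (0.013), upper-quartile (0.024) and totals-only scaling (0.0081), the stricter filter (0.011), DESeq2 (0.015), the compared groups alone (0.0093) and libraries over 2000000 reads (0.052). Genes passing between genotypes numbered 1 with the stricter filter and 14 in DESeq2 in stimulated cells, and 1, 4 with no filter and 4 in DESeq2 in unstimulated cells.

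Libraries of the 2 treatment labels share 7 numbers in their column names. Their deviations from the group means correlated at 0.0214 to 0.0694, below 0.1, and the labels do not say what the numbers mean. The main tests therefore did not pair the samples. Even so, 6 of 7 correlated best with their own number, so a pairing is not excluded. With these numbers as a replicate block, Rela in LTβRΔN neutrophils passed (0.54, edgeR adjusted p = 0.0459), 324 genes passed in control and 343 in LTβRΔN neutrophils, and no other call of a member changed.

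Depth limits Relb and Rel most, with as few as 33 and 48 reads in a library. Lengths from the longest transcript raise Nfkb1 to 9.45, 15.2, 8.66 and 15.9 CPM per kb in unstimulated and stimulated control and LTβRΔN neutrophils.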
